A study of Mus musculus with 10 samples.

Results

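The genes described here are those of sterol and fatty acid synthesis that are known targets or components of the SREBP system, in mouse Lewis lung carcinoma cells kept at acidic or neutral pH. A list of 35 genes was taken by name, 25 of a sterol branch and 10 of a fatty acid branch, and each gene was represented by the probe set with the highest mean signal among those annotated to that gene alone. Of the 35, 34 had such a probe set (24 in the sterol branch, 10 in the fatty acid branch), out of 18193 genes represented in the same way. All 34 were among the 12160 genes whose mean passed a filter on low signal (a log2 value of 3.17, or a signal of 6.61). The lowest signal of a member on any array was 22.6, in Mmab, above that cut, so no member was tested only because 1 group was high. The acetyl-CoA acetyltransferase gene Acat2 is not analysed here.

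Lewis lung carcinoma is a tumour cell line from C57BL/6 mice. Of the lines used, the TDAG8 line stably expressed TDAG8 (gene symbol Gpr65), a receptor that senses protons, and the control line carried the vector alone. The study was set up to find genes that TDAG8 regulates in culture. All cells were first held for 12 h without serum in DMEM with 0.1% bovine serum albumin at pH 7.4, and were then taken before treatment or moved to fresh medium of that composition at pH 7.4 or pH 6.4 for 4 or 12 h. Each of the 5 conditions in each of the 2 lines was measured on 1 Affymetrix Mouse430 2.0 array (10 arrays) that received RNA pooled from 4 cultures, so no condition has a replicate array. The labels do not say whether a line was a single clone, which promoter drove TDAG8, or where on the receptor's RNA its probe set lies.

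Cells make cholesterol from acetyl-CoA through mevalonate, isoprenyl diphosphates, squalene and lanosterol, and they make fatty acids from acetyl-CoA through malonyl-CoA. The transcription factors SREBP-2 (gene Srebf2) and SREBP-1 (gene Srebf1) are made as precursors in the endoplasmic reticulum membrane and bound there by the escort protein SCAP. When membrane sterols are low, SCAP carries them to the Golgi, where proteases release the active factors, and when sterols are high, the INSIG proteins retain SCAP. SREBP-2 is best known for driving sterol synthesis and SREBP-1 for driving fatty acid synthesis.

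The receptor probe set of Gpr65 read between 0.3 and 5.3 on the 10 arrays, below the filter in both lines, so it gave no check of the line labels. The array medians ran from 11.7 to 13.8 in deposited signal, and the ratio of 3' to 5' probe sets ran from 0.756 to 0.841 for Gapdh and from 1.26 to 1.35 for Actb. Of the 5 epithelial markers, Krt8 read 1242 to 2648, Epcam 22.1 to 45.1 and Krt18 21.6 to 194, while Cdh1 and Krt19 stayed below the filter. Krt18 was higher in the TDAG8 line in each condition and highest there at pH 6.4, at 171 and 194 on the TDAG8 acid arrays, 62.3 to 71.2 on the other TDAG8 arrays and 21.6 to 42.1 in the control line, and its part in the results below was not tested. Of the 4 lung epithelial markers, Sftpb passed (13.1 to 28.6), and Nkx2-1, Sftpc and Scgb1a1 did not. Of the leukocyte markers, 1 of 3 passed the filter, and their summed signal was 15.1 to 25.2 at pH 6.4 and 13.4 to 23.6 on the other arrays, with Ptprc and Cd3e below it. Of the endothelial markers, 2 of 4 passed, with a summed signal of 15.7 to 33.0 at pH 6.4 and 19.2 to 25.1 elsewhere. Of the 5 fibroblast markers, Pdgfra, Pdgfrb and Dcn passed and Col1a1 and Thy1 did not. Their summed signal was 1010 to 1290 at pH 6.4 and 1810 to 3550 on the other 6 arrays, so it moved with the pH, and its part in the results below was not tested.

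Promoter sequences of 27 of the 34 members (20 of the sterol and 7 of the fatty acid branch) were found by symbol in the RefSeq table of the GRCm38.p6 build, and those of 6 start regions are shown because their genes mark the main patterns of the data. Hmgcs1 and Msmo1 are enzymes of the sterol branch, Srebf2 encodes SREBP-2, and Insig1 and Insig2 encode the INSIG proteins, which moved in opposite directions after 12 h at pH 6.4. The stretches are the 200 bases before each start site, at chr13:119690151-119690350 (Hmgcs1, plus strand), chr8:64733579-64733778 (Msmo1, minus strand), chr15:82147069-82147268 (Srebf2, plus strand), chr5:28071212-28071411 (Insig1, plus strand) and chr1:121332590-121332789 (Insig2, minus strand, the most upstream of 3 start sites). Mvk and Mmab, which showed some of the largest falls, start on opposite strands 242 bases apart, and the 241 bases between their start sites (chr5:114444028-114444268) are shown on the plus strand, which ends at the start of Mvk. Capitals mark a sterol regulatory element core (TCACNCCA), an E-box (CACGTG), the site of NF-Y (CCAAT, called a CCAAT box) or a GC box (GGGCGG, the site of Sp1), each on either strand.
Hmgcs1: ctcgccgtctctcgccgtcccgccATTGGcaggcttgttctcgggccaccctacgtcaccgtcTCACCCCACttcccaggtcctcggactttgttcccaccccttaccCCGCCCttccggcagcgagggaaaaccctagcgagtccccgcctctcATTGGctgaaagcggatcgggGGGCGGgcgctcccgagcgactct
Msmo1: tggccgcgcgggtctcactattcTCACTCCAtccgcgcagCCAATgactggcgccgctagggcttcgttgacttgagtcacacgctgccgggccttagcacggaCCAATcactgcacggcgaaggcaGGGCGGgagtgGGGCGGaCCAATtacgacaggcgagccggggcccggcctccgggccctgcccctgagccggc
Srebf2: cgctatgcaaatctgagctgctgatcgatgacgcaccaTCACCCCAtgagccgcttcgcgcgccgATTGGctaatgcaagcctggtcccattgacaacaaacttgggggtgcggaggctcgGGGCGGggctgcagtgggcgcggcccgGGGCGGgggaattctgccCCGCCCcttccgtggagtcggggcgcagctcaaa
Insig1: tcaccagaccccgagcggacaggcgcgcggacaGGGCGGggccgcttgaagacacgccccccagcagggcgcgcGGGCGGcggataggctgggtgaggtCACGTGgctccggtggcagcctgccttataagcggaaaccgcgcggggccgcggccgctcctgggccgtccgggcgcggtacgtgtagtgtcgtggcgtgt
Insig2: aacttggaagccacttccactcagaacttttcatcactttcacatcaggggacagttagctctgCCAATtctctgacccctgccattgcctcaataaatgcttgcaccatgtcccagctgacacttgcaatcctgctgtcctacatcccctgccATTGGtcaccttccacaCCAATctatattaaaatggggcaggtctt
Mmab to Mvk: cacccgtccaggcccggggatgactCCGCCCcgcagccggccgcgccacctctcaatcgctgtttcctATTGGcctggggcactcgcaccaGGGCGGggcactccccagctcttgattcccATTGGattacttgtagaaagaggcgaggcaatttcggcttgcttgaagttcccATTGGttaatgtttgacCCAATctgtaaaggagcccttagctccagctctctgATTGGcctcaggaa

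Within 250 bases before the start, searched on both strands, the sterol regulatory element core was found in 3 of 20 sterol members (Hmgcs1, Msmo1 and Srebf2) and 0 of 7 fatty acid members, against 4.2% of the promoters of all 27025 genes in the table and 4.15% of those of the 9861 tested genes in it. The core lay 137 bases before the start of Hmgcs1, 177 before that of Msmo1 and 162 before that of Srebf2. In Hmgcs1 it was part of the longer spelling TCACNCCAC, which 1.22% of all promoters hold. A CCAAT box was present in 19 of 20 sterol members (95.0%) and 3 of 7 fatty acid members (42.9%), against 37.5% of all promoters and 40.3% of those of tested genes. A GC box was present in 18 of 20 and 4 of 7, against 35.4% of all and 63.2% of tested. The E-box was present in 5 sterol members (Hsd17b7, Sc5d, Dhcr7, Insig1 and Scap) and 0 fatty acid members, against 6.86% of all and 9.83% of tested. The stretch shared by Mmab and Mvk holds 5 CCAAT boxes, 1 read on the plus strand and 4 on the minus strand, and counts for both genes. A gene was counted where any of its listed start sites had a match, and some members, Insig2 among them, have several. The shown stretch of Insig1 holds an E-box and 2 GC boxes, and that of Insig2 3 CCAAT boxes and none of the other motifs, while other start sites of Insig2 hold the GC boxes for which it was counted. These are matches of letters in a fixed window and not measured binding.

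The first comparison asked how acid changed the members, by setting pH 6.4 against pH 7.4 at the same time over both lines. After 12 h, 30 of the 34 members fell at pH 6.4 and 1, Insig2, rose. The median log2 difference was -0.90 over the 24 sterol members (21 lower, 1 higher) and -0.87 over the 10 fatty acid members (9 lower), against 0.02 over all genes tested, and the branches were not tested against each other. Of all genes tested, 34.6% passed in either direction at this time, 17.7% lower and 17% higher. The differences are on the scale of log2(signal + 2.4) after quantile normalisation, and were tested with limma over the 10 arrays, where the disagreement between the lines is the error (adjusted p under 0.05, Benjamini-Hochberg over all genes tested). In pooled cultures, fewer cells with a transcript and less transcript per cell cannot be told apart. With each array centred on its median in place of quantile normalisation, the median of all genes moved to 0.12, the medians of the branches were -0.69 and -0.67, and 25 of the 31 calls held. With 1 array left out at a time, between 24 and 30 of the 31 held.

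**Figure D1:**
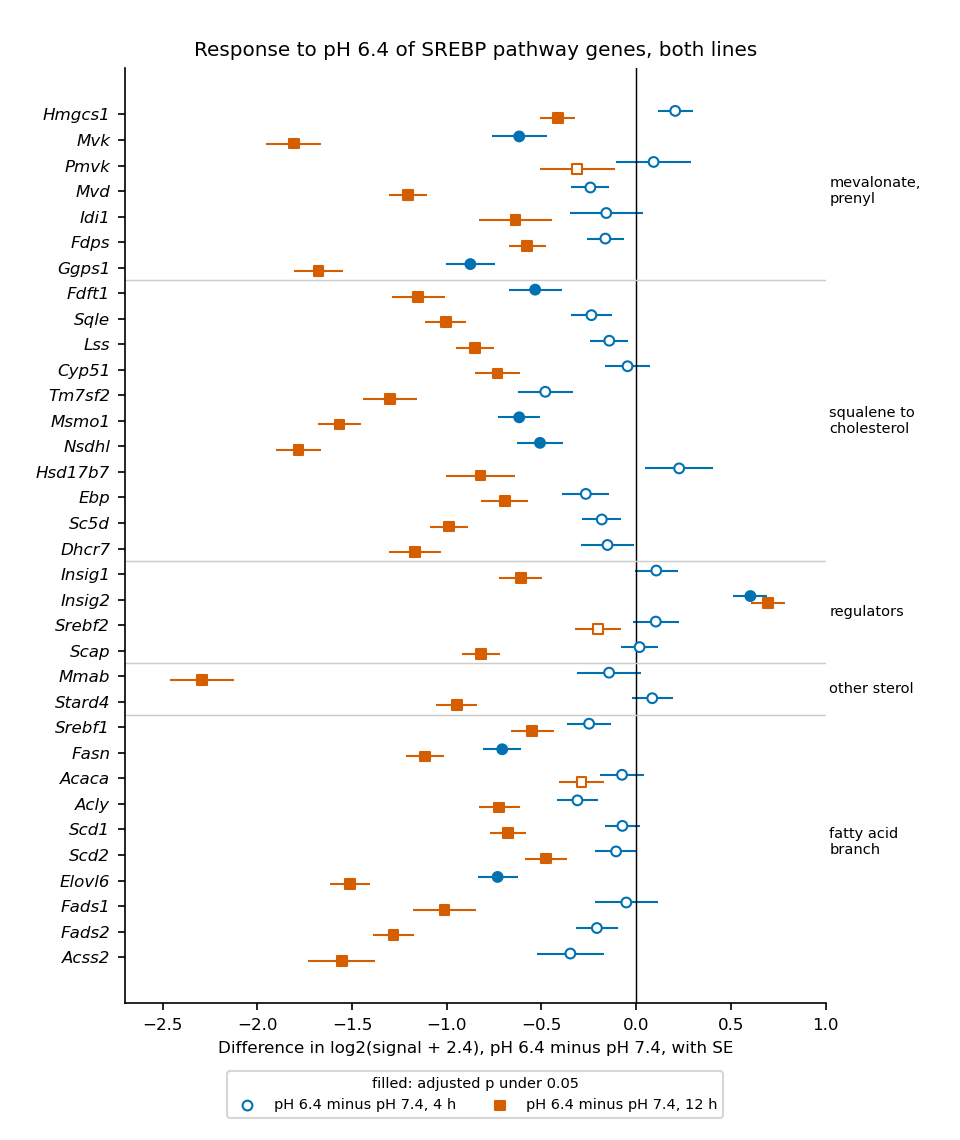
Log2 difference between pH 6.4 and pH 7.4 (x axis, on log2(signal + 2.4), with its standard error as a bar) for each of the 34 members, grouped by role, at 4 h (circles) and 12 h (squares). Filled points passed at an adjusted p under 0.05, which at 12 h covers 31 members, all left of 0 except Insig2, and at 4 h covers 8.

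In the mevalonate and isoprenyl steps, 6 of 7 measured members fell at 12 h, with a median of -0.64. Signals are given for the control line and then the TDAG8 line, and for 4 h and then 12 h. Mvk, mevalonate kinase, read 236 and 258 before treatment, 274 and 315 and then 250.1 and 253 at pH 7.4, and 169 and 186 and then 76.0 and 61.8 at pH 6.4. Both 12 h acid arrays lay below all other arrays, and the difference at 12 h was -1.81 (SE 0.145, adjusted p = 0.00096), a 3.5-fold fall. Ggps1, which makes the geranylgeranyl diphosphate used in protein prenylation, read 118 and 138 before treatment, 129 and 146 and then 140.4 and 136 at pH 7.4, and 59.1 and 76.6 and then 32.2 and 45.1 at pH 6.4, and its 12 h difference was -1.68 (SE 0.131, adjusted p = 0.000911). Mvd, the decarboxylase that yields isopentenyl diphosphate, read 345 and 445 before treatment, 497 and 567 and then 479 and 507 at pH 7.4, and 402 and 484 and then 195 and 238 at pH 6.4, with a difference of -1.20 (SE 0.0998, adjusted p = 0.00104). For both genes the 12 h acid arrays were again the lowest of the 10. Hmgcs1, the cytosolic synthase of HMG-CoA, behaved differently in time and read 3196 and 3224 before treatment, 3626 and 3832 and then 3950.3 and 3984 at pH 7.4, and 4849 and 4779 and then 2964 and 3045 at pH 6.4. Its highest signals were those of the 4 h acid arrays and its lowest those of the 12 h acid arrays, and the 12 h difference was -0.41 (SE 0.0924, adjusted p = 0.0179), or -0.25 (adjusted p = 0.188) with centred arrays. Fdps, farnesyl diphosphate synthase, read 3841 and 3416 before treatment, 4403 and 4133 and then 4341 and 4540.2 at pH 7.4, and 4348 and 4306 and then 3094 and 2986 at pH 6.4, a difference of -0.57 (SE 0.0987) that passed, but not with centred arrays (-0.39, adjusted p = 0.0905).

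Idi1 and Pmvk were the members whose lines differed most at 12 h. Idi1, the isopentenyl diphosphate isomerase, read 1357 and 1541 before treatment, 1752 and 1840.3 and then 2048 and 1709 at pH 7.4, and 1736 and 1920.3 and then 1024 and 1450.3 at pH 6.4. The single-array difference at 12 h was -1.05 in the control line and -0.22 in the TDAG8 line, and their average passed narrowly (-0.64 (SE 0.192, adjusted p = 0.0464)). Pmvk, phosphomevalonate kinase, read 531 and 620.3 before treatment, 700.2 and 794 and then 656 and 681 at pH 7.4, and 695 and 1009 and then 413 and 732 at pH 6.4. Its 12 h acid signal was below the matched pH 7.4 signal in the control line (-0.71) and above it in the TDAG8 line (0.09), and the average of -0.31 did not pass (adjusted p = 0.268).

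All 11 members of the steps from squalene to cholesterol fell at 12 h, by a median of 1.01 and with differences from -1.78 to -0.69. Fdft1, squalene synthase, read 1003 and 941 before treatment, 1093 and 1252 and then 1051 and 1339.9 at pH 7.4, and 790.4 and 928 and then 578 and 535 at pH 6.4 (difference -1.15). Sqle, squalene epoxidase, read 1722 and 1679 before treatment, 1804 and 1889 and then 1991 and 2054 at pH 7.4, and 1618 and 1954 and then 1038 and 1025 at pH 6.4 (-1.01). Lss, lanosterol synthase, read 913 and 947 before treatment, 1012 and 1195 and then 1019 and 1060.0 at pH 7.4, and 969.6 and 1165 and then 559 and 639 at pH 6.4 (-0.85). In these early steps the 12 h acid arrays were the lowest in each gene, while the 4 h acid arrays overlapped the arrays before treatment in Sqle and lay above them in Lss.

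On the probe sets used, the largest falls of these steps were in Nsdhl and Msmo1, which act in removing the extra methyl groups of lanosterol. Hsd17b7 and Cyp51, which also act in that demethylation, fell less. Nsdhl, the dehydrogenase of that demethylation, read 1049 and 1086 before treatment, 1189.6 and 1368 and then 1395 and 1405 at pH 7.4, and 927 and 1009 and then 447 and 406 at pH 6.4, a difference of -1.78 (SE 0.12, adjusted p = 0.00076) or 3.44-fold. Msmo1, the methylsterol monooxygenase, read 2129.8 and 2363 before treatment, 2559.9 and 2759 and then 3027 and 2850.0 at pH 7.4, and 1872 and 2096 and then 978 and 1039.6 at pH 6.4, a difference of -1.57 (SE 0.112, adjusted p = 0.00076). For both genes the 4 h acid signal lay below the arrays before treatment and the 12 h acid signal was under that at 4 h in both lines. Hsd17b7, the ketoreductase of the same steps, read 429 and 379.6 before treatment, 496 and 555 and then 628 and 602 at pH 7.4, and 547 and 704 and then 299.9 and 423 at pH 6.4 (-0.82 (SE 0.18)), so its 12 h acid arrays overlapped those before treatment. Cyp51, the lanosterol demethylase, read 1022 and 1265 before treatment, 1311 and 1456 and then 1466 and 1595 at pH 7.4, and 1316 and 1681 and then 799.8 and 1103 at pH 6.4 (-0.73 (SE 0.121)), and Tm7sf2, a sterol reductase, read 50.9 and 55.3 before treatment, 71.9 and 108 and then 115 and 151 at pH 7.4, and 49.5 and 66.9 and then 43.7 and 53.5 at pH 6.4 (-1.30 (SE 0.144)). In Tm7sf2 the acid arrays stayed close to the arrays before treatment and the pH 7.4 arrays were higher. The last steps fell as well. Ebp, the sterol isomerase, read 280.2 and 274 before treatment, 291 and 360.1 and then 312 and 305 at pH 7.4, and 234 and 276 and then 179 and 206 at pH 6.4 (-0.69). Sc5d, the desaturase that acts on lathosterol, read 926 and 1045 before treatment, 1023 and 1206 and then 1058 and 1203 at pH 7.4, and 895 and 1232 and then 532 and 658 at pH 6.4 (-0.99). Dhcr7, the reductase that yields cholesterol, read 573 and 764 before treatment, 741 and 852 and then 695 and 777 at pH 7.4, and 716 and 785 and then 348 and 334 at pH 6.4 (-1.17). The 12 h acid arrays were the lowest of the 10 in Ebp, Sc5d and Dhcr7.

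The regulators of the pathway moved in different directions. Insig1, an INSIG gene that SREBP itself activates, read 488 and 669 before treatment, 565 and 732 and then 672 and 782 at pH 7.4, and 687 and 762 and then 448 and 531 at pH 6.4, and Insig2, the INSIG gene known to be less dependent on SREBP, read 265 and 253 before treatment, 268 and 250.3 and then 255 and 257 at pH 7.4, and 372 and 386 and then 427 and 416 at pH 6.4. All 4 acid arrays of Insig2 lay above all 6 other arrays, a separation whose share over all genes was not counted. The difference of Insig2 from pH 7.4 was 0.60 (SE 0.0896, adjusted p = 0.0095) at 4 h and 0.70 (SE 0.0896, adjusted p = 0.00289) at 12 h. Insig1 fell at 12 h by 1.53-fold (-0.61 (SE 0.115, adjusted p = 0.0098)), and did not pass with centred arrays (-0.42, adjusted p = 0.0544). Scap, the escort protein, read 577 and 588 before treatment, 550.1 and 492 and then 483 and 458 at pH 7.4, and 568 and 489 and then 277 and 268 at pH 6.4, and at 12 h its difference was -0.82 (SE 0.0997, adjusted p = 0.00244), with no overlap between the 12 h acid arrays and the others. Srebf2, which encodes SREBP-2, read 546 and 669.9 before treatment, 575 and 621 and then 590.4 and 764 at pH 7.4, and 645 and 669 and then 592 and 606 at pH 6.4. Its acid arrays overlapped the pH 7.4 arrays and its difference of -0.20 at 12 h did not pass (adjusted p = 0.251).

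Mmab and Stard4 are grouped with the sterol branch for their known regulation rather than as enzymes of the path. Mmab encodes a cobalamin adenosyltransferase and had the largest fall of all members on the probe sets used. It read 149 and 133 before treatment, 139.7 and 127 and then 131 and 162 at pH 7.4, and 117 and 102 and then 22.6 and 28.1 at pH 6.4, a difference of -2.29 (SE 0.171, adjusted p = 0.000885) at 12 h, which is 4.9-fold. After 4 h of acid it was at -0.14 from its pH 7.4 level (adjusted p = 0.604), and Mvk, with which it shares the start region shown above, was at -0.62 (adjusted p = 0.035). Stard4, a cytosolic sterol carrier, read 844 and 886 before treatment, 983 and 1081 and then 1043 and 992 at pH 7.4, and 1189.5 and 1179 and then 566 and 532 at pH 6.4 (-0.95 (SE 0.107)), so the 12 h acid arrays were the lowest and the 4 h acid arrays the highest of the 10.

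In the fatty acid branch 9 of 10 members fell at 12 h. Acss2, which makes acetyl-CoA from acetate, read 226 and 402 before treatment, 427 and 594 and then 594 and 677 at pH 7.4, and 337 and 444 and then 165 and 297 at pH 6.4, with a difference of -1.55 (SE 0.176, adjusted p = 0.002). The control line was lower than the TDAG8 line in every condition, and the 12 h acid array of the TDAG8 line overlapped the array before treatment of the control line. Elovl6, the elongase of saturated and monounsaturated fatty acids, read 824 and 888 before treatment, 961 and 1064 and then 1110.3 and 1185 at pH 7.4, and 559.6 and 691 and then 427 and 417 at pH 6.4, a difference of -1.51 (SE 0.106, adjusted p = 0.00076), and Fasn, fatty acid synthase, read 1276 and 1312 before treatment, 1457 and 1572 and then 1334 and 1569 at pH 7.4, and 969 and 1034 and then 699 and 685 at pH 6.4, a difference of -1.11 (SE 0.101, adjusted p = 0.00119). In both, all 4 acid arrays lay below all 6 other arrays, a separation whose share over all genes was not counted. Fads2, a fatty acid desaturase, read 354 and 493 before treatment, 420.2 and 518 and then 455 and 516 at pH 7.4, and 369 and 418 and then 178 and 227 at pH 6.4 (-1.28 (SE 0.11)). Its partner Fads1 read 584 and 706 before treatment, 611 and 719 and then 668 and 801 at pH 7.4, and 589 and 736 and then 414 and 343 at pH 6.4 (-1.01 (SE 0.167)). In both desaturase genes the 12 h acid arrays were the lowest, and the 4 h acid arrays did not stand apart from those before treatment.

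Smaller falls were seen in the rest of the fatty acid branch. Acly, ATP citrate lyase, read 1292 and 1439 before treatment, 1637 and 1698 and then 1669.8 and 1663 at pH 7.4, and 1506 and 1526 and then 980.1 and 1095 at pH 6.4 (-0.72 (SE 0.107)), and Scd1, the stearoyl-CoA desaturase, read 1811 and 1941 before treatment, 2113 and 2419 and then 3050.1 and 3033 at pH 7.4, and 2295 and 2628 and then 1891 and 1979.5 at pH 6.4 (-0.68 (SE 0.0939)). Scd1 at pH 6.4 after 12 h was close to its level before treatment in both lines, while at pH 7.4 it was higher. Scd2, another desaturase of this kind, read 5667 and 4826 before treatment, 5348 and 5515 and then 6159 and 5817 at pH 7.4, and 5444 and 5679 and then 4363 and 4496 at pH 6.4 (-0.48 (SE 0.109), and -0.28 with an adjusted p of 0.178 with centred arrays). Srebf1, which encodes SREBP-1, read 399 and 412 before treatment, 415 and 458 and then 487 and 521 at pH 7.4, and 372 and 341 and then 367 and 336 at pH 6.4 (-0.55 (SE 0.114), and -0.37 with an adjusted p of 0.0864 with centred arrays). Acaca, acetyl-CoA carboxylase, read 218 and 234 before treatment, 264 and 259 and then 254 and 289 at pH 7.4, and 240.2 and 225 and then 204 and 248 at pH 6.4, and its difference of -0.29 did not pass (adjusted p = 0.109). Its acid arrays lay below its pH 7.4 arrays and overlapped those before treatment.

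**Figure D2:**
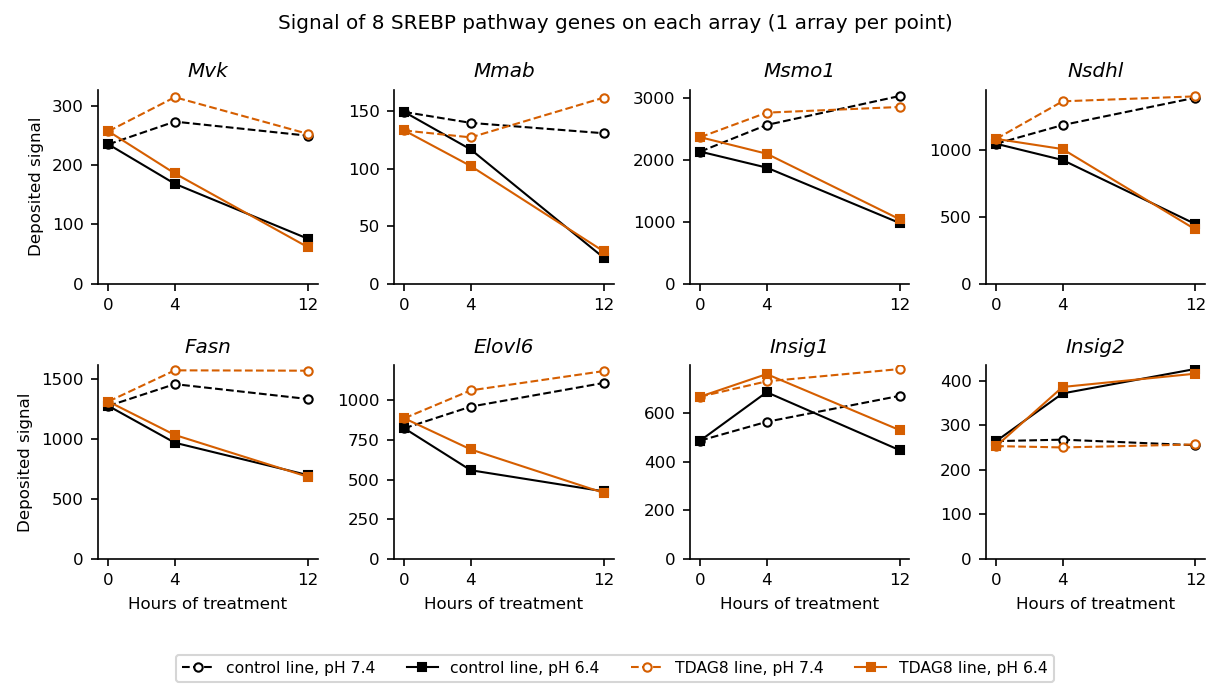
Deposited signal (y axis, linear, from 0) against hours of treatment (x axis) for 8 members, 1 array per point, with dashed lines for pH 7.4 and solid lines for pH 6.4 in the control line (black) and the TDAG8 line (orange). At pH 6.4 the enzymes fall in both lines and Insig2 is higher than at pH 7.4 at both times, and in the probe set of Mmab plotted most of the fall comes after 4 h.

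Counted on the deposited signal, without a fit, both 12 h acid arrays were the lowest of the 10 for 22 of 34 members (16 of 24 sterol and 6 of 10 fatty acid), against 13.8% of all genes tested.

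After 4 h of acid, 8 of 34 members passed, near the share of 17.8% of all genes tested (11.6% lower, 6.27% higher). Of the 8 members, 7 fell and 1 rose. Those that fell were Ggps1 (-0.88 (SE 0.131, adjusted p = 0.00967)), Mvk (-0.62), Fdft1 (-0.53), Msmo1 (-0.62) and Nsdhl (-0.51) of the sterol branch, and Elovl6 (-0.73 (SE 0.106, adjusted p = 0.00889)) and Fasn (-0.71 (SE 0.101, adjusted p = 0.00869)) of the fatty acid branch. All 7 were also lower at 12 h. Insig2 was the member that rose. The branch medians were -0.16 for sterol and -0.23 for fatty acid members, and the sterol median was -0.11 with centred arrays and -0.05 with the values as deposited. Hmgcs1 was above its pH 7.4 level by 0.21 (SE 0.0924, adjusted p = 0.177) and did not pass. With the values as deposited, without quantile normalisation, it did pass (0.37, adjusted p = 0.0368). With centred arrays 4 of the 8 calls held, those of Mvk, Ggps1, Fasn and Elovl6. In all 5 members passed there, where 15.3% of all genes tested did. With the filter on low signal raised to the 60th percentile 9 passed, where 30.5% of the genes tested did. The 8 calls rested on few arrays. Without the pH 7.4 array of 4 h of either line 0 members passed, without the pH 6.4 array of 4 h of either line 2 did, and without any 1 of the arrays before treatment or the pH 7.4 arrays of 12 h 5 did.

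The 12 h response was set against the 4 h response directly. The fall was larger at 12 h in 19 members (15 sterol, 4 fatty acid) and smaller in 0, where 12.2% of all genes tested passed (5.54% lower, 6.62% higher). The sterol median of this difference was -0.79 and the fatty acid median -0.51. The largest were in Mmab (-2.15 (SE 0.241, adjusted p = 0.0155)), Nsdhl (-1.27 (SE 0.169, adjusted p = 0.018)) and Acss2 (-1.21 (SE 0.248, adjusted p = 0.0333)). In Hmgcs1, Insig1, Stard4, Scap and Hsd17b7 the 4 h difference was above 0 and the 12 h difference below it, and the test of the change passed for these 5 genes, at -0.62, -0.72, -1.03, -0.84 and -1.05. None of their 4 h differences passed on the quantile scale, so a rise at 4 h is not shown by this test. At 4 h the lines had opposite signs in Insig1 (0.24 control, -0.03 TDAG8) and Scap (0.05 control, -0.02 TDAG8). Fasn, which fell at both times, did not pass here (-0.41, adjusted p = 0.117), and neither did Insig2, which rose at both (0.09, adjusted p = 0.669). Adjusted p-values of the 19 lay between 0.0155 and 0.0494. With centred arrays 6 members passed. Without the control pH 6.4 array of 4 h, or without any single pH 7.4 array of the 4 treated ones, 0 passed, and without the TDAG8 pH 6.4 array of 4 h 2 did. Without the TDAG8 pH 6.4 array of 12 h 6 passed, and without that of the control line or either array before treatment 9 did.

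Time was also compared within each pH. At pH 6.4, 25 members were lower at 12 h than at 4 h and 0 higher (19 sterol, 6 fatty acid), where 27.2% of all genes tested passed (12.2% lower, 15% higher). Mmab (-2.03), Mvk (-1.41), Nsdhl (-1.13), Dhcr7 (-1.12) and Mvd (-1.07) fell most in the sterol branch, and Fads2 (-1.02) and Acss2 (-0.85) in the fatty acid branch. Among the 9 that did not pass were the desaturases Scd1 (-0.17) and Scd2 (-0.30) and both SREBP genes, Srebf1 (-0.09) and Srebf2 (-0.11). The count was 14 without the control pH 6.4 array of 4 h and 13 without that of the TDAG8 line. At pH 7.4, 0 members and 0 genes passed between 4 and 12 h in limma, with 2 members (Tm7sf2 and Scd1) and 1283 genes (10.6%) at an unadjusted p under 0.05 and 1 member called with trend and robust moderation, where 0.296% of genes were.

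The treated arrays were then set against those before treatment, a comparison added after the data had been seen. These comparisons share the arrays before treatment. At pH 7.4, 31 of 34 members were above their level before treatment after 4 h (median 0.24) and 33 of 34 after 12 h (median 0.27). None passed in limma at either time, with 7 and 16 members at an unadjusted p under 0.05, as had 4.66% and 16.8% of all genes tested, and with 0 and 7 genes passing in all (0.0576% of those tested at 12 h), while trend and robust moderation called 10 members at 12 h and 4.1% of all genes. The largest differences at 12 h were those of Tm7sf2 (1.25 (SE 0.144)), Acss2 (1.10 (SE 0.176)) and Scd1 (0.68 (SE 0.0939)), and Scap was the member below its level before treatment (-0.32 (SE 0.0997)). At pH 6.4 after 4 h, 5 of 34 members passed, near the share of 16% of all genes tested (10.6% lower, 5.39% higher). Hmgcs1 (0.43) and Insig2 (0.61) were higher and Ggps1 (-0.77), Fasn (-0.48) and Elovl6 (-0.50) lower than before treatment. Without the pH 7.4 pair of 4 h 2 members passed, and without that of 12 h 3 did. At pH 6.4 after 12 h, 19 members were lower (14 sterol, 5 fatty acid) and Insig2 was higher, where 29.9% of genes passed (15.6% lower, 14.3% higher). The fall against the level before treatment was -2.25 (SE 0.171) in Mmab, -1.76 (SE 0.145) in Mvk, -1.57 (SE 0.131) in Ggps1 and -1.07 (SE 0.11) in Fads2. The comparison with pH 7.4 at 12 h uses the same pH 6.4 arrays, so some overlap with it is built in. All 19 lower members were among the 30 that passed as lower than pH 7.4 at 12 h. For the rest of these 30 the difference from the level before treatment did not pass. Among them were Cyp51 (-0.30), Tm7sf2 (-0.04), Hsd17b7 (-0.19), Insig1 (-0.25), Hmgcs1 (-0.13), Acss2 (-0.45) and Scd1 (0.01).

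Averaged over both times and both lines, pH was compared in 4 pairs of arrays. In this fit 6 members passed, where 10.2% of all genes tested did (5.65% lower, 4.51% higher). Ggps1 (-1.28 (SE 0.211)), Elovl6 (-1.12 (SE 0.197)), Msmo1 (-1.09 (SE 0.228)), Fasn (-0.91 (SE 0.142)) and Fdft1 (-0.84 (SE 0.181)) were lower and Insig2 (0.65 (SE 0.108)) higher. All 6 moved the same way at 4 h and 12 h, which this fit favours, since a change in the response between the times counts as error in it. Mmab had the largest fall at 12 h on the probe sets used. It did not pass when the times were averaged (-1.22 (SE 0.466, adjusted p = 0.144)). With any 1 of the 4 pairs left out, 0 members passed.

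The comparison of the lines asked whether the TDAG8 line differed from the control line at the same condition. None of the 34 members passed in limma over the 5 matched pairs (12 at an unadjusted p under 0.05), where 149 genes, 1.23% of those tested, passed and 2528 (20.8%) had an unadjusted p under 0.05. The differences were small and mostly above 0. The median was 0.17 over the sterol and 0.15 over the fatty acid members, against -0.0025 over all genes, and 30 of 34 were above 0. With centred arrays 26 of 34 were above 0 and the medians were 0.10 and 0.07, and with the values as deposited they were 0.13 and 0.10. On the quantile scale 15 of 34 members were higher in the TDAG8 line in all 5 pairs, against 10.6% of all genes tested. The largest difference was that of Acss2 (0.52 (SE 0.111, adjusted p = 0.0851)), which was higher in the TDAG8 line in all 5 pairs, from 0.18 at pH 7.4 after 12 h to 0.80 before treatment. Pmvk (0.37 (SE 0.124, adjusted p = 0.179)), Cyp51 (0.34 (SE 0.0764, adjusted p = 0.092)) and Tm7sf2 (0.32 (SE 0.0913, adjusted p = 0.141)) followed. Scap (-0.10), Insig2 (-0.04), Srebf1 (-0.01) and Mmab (-0.00) were the members below 0. With trend and robust moderation in limma 9 members passed, all higher in the TDAG8 line, where 7.26% of all genes passed (3.74% higher), and with the stricter filter on low signal 3 did, where 6.32% of the genes tested passed.

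**Figure D3:**
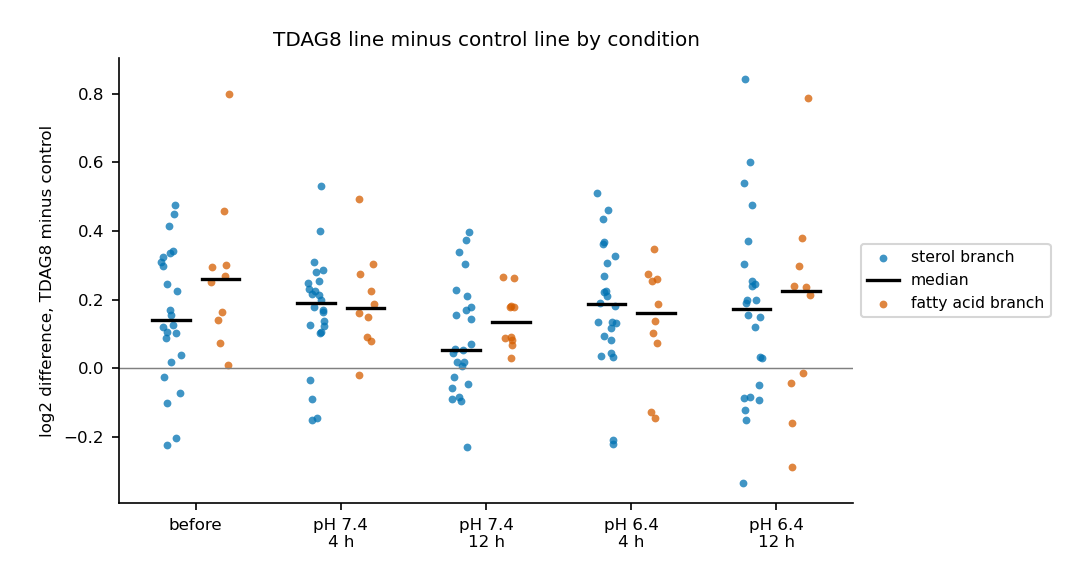
Log2 difference between the TDAG8 line and the control line (y axis, 1 array against 1 array) for each sterol member (blue) and fatty acid member (orange) in each of the 5 conditions (x axis), with bars at the medians. The medians lie above 0 in each condition and the members spread to both sides of it, most widely at pH 6.4 after 12 h, where 11 of 34 members lie below 0.

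The response to acid was then compared between the lines, since the study set out to find what TDAG8 regulates and the receptor senses protons. The interaction of pH and line passed for 0 of 34 members and 0 of 12160 genes in limma, with 0 members and 335 genes (2.75%) at an unadjusted p under 0.05. Its estimates ran from -0.28 (Fads1) to 0.54 (Pmvk, SE 0.339). Standard errors of members in this fit were wide, from 0.268 in Insig2 to 1.01 in Mmab, since the change between 4 and 12 h counts as error in it. At 12 h the sterol median of the single-array differences was -0.97 in the control line and -0.87 in the TDAG8 line, and the fatty acid median was -0.79 and -0.95. Of the 32 members lower at pH 6.4 in both lines, 18 fell further in the control line and 14 in the TDAG8 line. At or beyond a fall of 1 on the log2 scale were 41.2% of members in the control line and 44.1% in the TDAG8 line, against 8.79% and 7.89% of all genes tested. Mmab was at -2.27 in the control and -2.32 in the TDAG8 line, Scap at -0.82 in both, and Insig2 at 0.72 and 0.67. Acss2 was at -1.86 in the control line and -1.25 in the TDAG8 line, and Fads1 at -0.73 and -1.29.

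**Figure D4:**
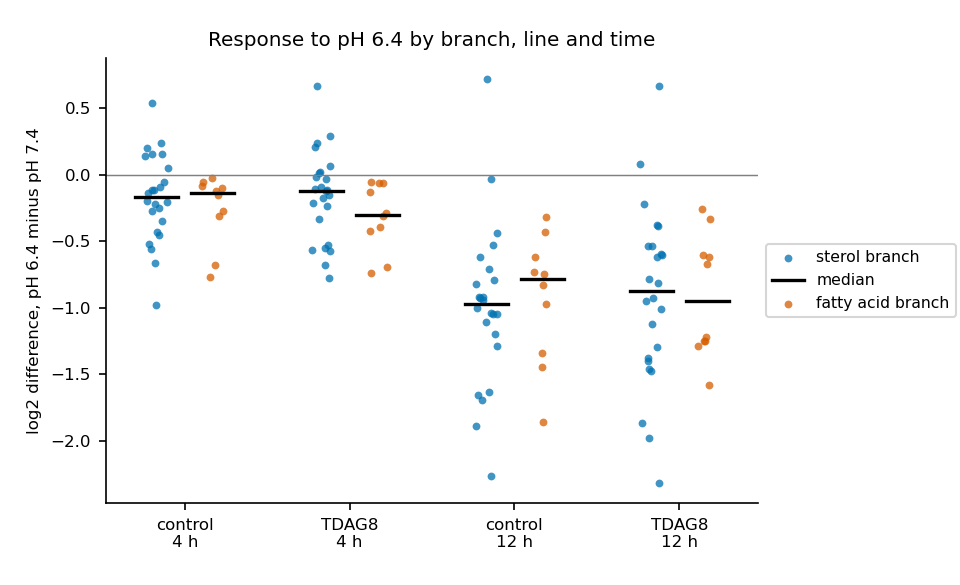
Log2 difference between pH 6.4 and pH 7.4 (y axis, 1 array against 1 array) for each sterol member (blue) and fatty acid member (orange), by line and time (x axis), with bars at the medians. At 4 h the medians lie between -0.30 and -0.12, and at 12 h they lie between -0.97 and -0.79 in both branches of both lines.

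Several members have more than 1 probe set, and these did not always move together. Of 23 members with more than 1 probe set above the filter, 6 had probe sets of opposite sign at 4 h and 4 at 12 h. For Insig2 all 3 probe sets were higher at pH 6.4, by 0.60 to 0.65 at 4 h and 0.53 to 0.79 at 12 h. For Sc5d the 3 ranged from -1.39 to -0.18 at 4 h and from -2.45 to -0.99 at 12 h, and the brightest, used above, moved least. Cyp51 ranged likewise from -0.94 to -0.05 at 4 h and from -1.75 to -0.73 at 12 h. In Scd1 the second probe set rose by 0.74 at 4 h where the one used was at -0.07, and at 12 h they stood at 0.09 and -0.68. In Stard4 the 3 probe sets spread from -0.05 to 0.85 at 4 h, while at 12 h the 3 lay between -0.95 and -0.18. Of the 4 probe sets of Mmab, the 2 brightest were at -0.14 and -0.20 at 4 h and at -2.29 and -2.32 at 12 h, while the 2 dimmer ones had already reached -0.99 and -1.17 at 4 h and stood at -1.68 and -1.43 at 12 h, so the timing of its fall differed by probe set. In Fdft1 and Msmo1, which fell at 4 h, a dim second probe set (signals of 1.1 to 17.1 and 4.9 to 31.9) was at 0.63 and 0.46 at that time, and all those of both genes were below 0 at 12 h. In Ggps1 the 4 probe sets ranged from -1.68 to 0.08 at 12 h, and in Hsd17b7 the dimmest of 4 was at 0.93 while the other 3 lay between -0.87 and -0.80. Hmgcs1 was above 0 in all 5 of its probe sets at 4 h (0.10 to 0.42) and below it in all 5 at 12 h (-1.12 to -0.40). When the probe sets of each gene were averaged instead of taking the brightest, 27 of the 31 calls at 12 h and 5 of the 8 at 4 h held.

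**Figure D5:**
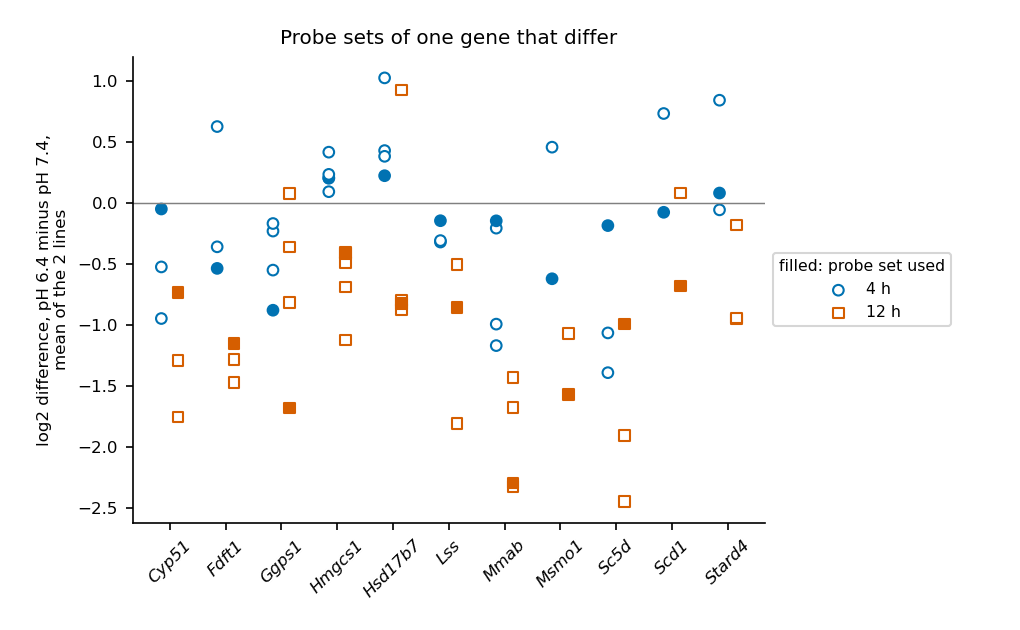
Log2 difference between pH 6.4 and pH 7.4, averaged over both lines (y axis), for every probe set above the filter of 11 members (x axis) whose probe sets differed most, at 4 h (circles) and 12 h (squares). Filled points are the probe sets used for the gene, and in Sc5d and Cyp51 the other probe sets lie further below 0 than the one used.

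Genes next to the pathway were read from lists of related functions, with all of their measured members counted. Over all genes tested, 17.7% were lower and 17% higher at 12 h, and 11.6% lower and 6.27% higher at 4 h. Of 7 other genes of SREBP processing and sterol handling, 1 fell at 12 h, Mbtps1, the first protease that cuts SREBP in the Golgi (-0.88, SE 0.101, adjusted p = 0.0021). Its signal was 771 and 918 at pH 7.4 and 469 and 478 at pH 6.4. That 1 of 7 is near the 17.7% of all genes. Mbtps2, the second protease, was at -0.07 (adjusted p = 0.595), and the median of the 7 was -0.0016. At 4 h Erlin2, a gene of sterol-regulated protein degradation, was the 1 that fell (-0.82, adjusted p = 0.00483). Of 6 tested genes of sterol export and LXR, the receptor of oxysterols, 3 fell at 12 h, with a median of -0.84. They were Lpcat3, a phospholipid remodelling enzyme (-1.57), Cyp27a1, a sterol hydroxylase (-1.18), and Nr1h3, which encodes LXR alpha (-0.61). None passed at 4 h in limma, with 2 at an unadjusted p under 0.05, as had 33.9% of all genes tested.

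Of 17 tested genes of other lipid synthesis, 7 fell and 1 rose at 12 h (17.7% and 17% of all genes tested), with a median of -0.22. Aacs, which makes acetoacetyl-CoA from ketone bodies, was lower by 2.21 on the log2 scale (SE 0.152, adjusted p = 0.00076), with signals of 571 and 569.5 at pH 7.4 and 133 and 113 at pH 6.4. Idh1, a cytosolic source of NADPH, was at -1.65, Acsl3, an acyl-CoA synthetase, at -1.36, and Hsd17b12, of very long chain elongation, at -1.15. Gpam, of glycerolipid synthesis, was the 1 that rose (0.46, adjusted p = 0.0451). At 4 h 2 of the 17 fell, Agpat2 (-0.98) and Acsl4 (-0.69). A list of fatty acid oxidation genes and PPAR targets, Angptl4 and Plin2 among them, had 7 tested genes. Of these, 2 fell (Acadm at -0.58 and Cpt1a at -0.50) and 1 rose (Cpt2 at 0.61) at 12 h, with a median of -0.37. At 4 h 1 of them rose (Hadha at 0.39). Of 5 genes that use isoprenyl diphosphates, 2 rose at 12 h and 0 fell, against the same shares, with a median of 0.37. Both encode beta subunits of protein prenyltransferases, Fntb (1.26, adjusted p = 0.00376) and Pggt1b (0.46, adjusted p = 0.0376). After 12 h the signal of Fntb was 78.5 (control) and 62.6 (TDAG8) at pH 7.4, and 186 (control) and 147 (TDAG8) at pH 6.4.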

How the data were processed

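Per the labels, RNA from 4 cultures was pooled for each of the 10 arrays. The deposited values are linear signal intensity per probe set, which the authors had scaled to a 2% trimmed mean of 100 on each array, as the values show. The software behind the signal is not given in the sources used here. Of 45101 probe sets, 34945 carried 1 gene symbol, 932 several and 9160 none, and 64 were controls, and only the first kind was used.

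Signals were quantile normalised between arrays and transformed to log2(signal + 2.4), the pseudocount being the 20th percentile of the deposited values. This understates changes of low genes. The probe set brightest on average stood for its gene, and genes whose mean log2 value reached the 40th percentile were tested. limma 3.58.1 in R 4.3.3 (lmFit, eBayes) fitted line and condition additively over the 10 arrays (4 residual degrees of freedom). Separate fits gave pH within 4 matched pairs (blocks of line and time, leaving 3 residual degrees of freedom) and pH by line (2). With 1 array per line and condition, p-values reflect how single arrays scatter, which may be technical, and the number of arrays limits the precision. The code was tested on simulated data.

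The members, the related gene lists, the tests and the alternatives were chosen with earlier results of these data known. All measured members are named, with values on every array, and up to 4 called genes with the largest difference are named from each related list. Comparisons with the arrays before treatment and fits leaving out single arrays were added after seeing the data. Other spellings of the motifs were looked at before those given were chosen. Listed genes without a probe set of a single symbol are not analysed here.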

Additional observations from a re-analysis of the deposited data

Results flagged for a closer look

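The response to acid differed between 12 h and 4 h, by a test of the difference itself over the 10 arrays (limma, adjusted p under 0.05), in 19 members, all lower at 12 h. Of all genes tested, 12.2% passed (5.54% lower, 6.62% higher). With centred arrays 6 members passed, where 11.5% of all genes tested did, and without a filter 0 members and 0 genes did. The values that follow are those of the probe sets used, and in Mmab the timing differed by probe set. The log2 difference between the responses was -2.15 in Mmab, -1.27 in Nsdhl, -1.21 in Acss2, -1.19 in Mvk and -1.07 in Fads2. It was -1.05 in Hsd17b7, -1.03 in Stard4 and -1.01 in Dhcr7. Mvd stood at -0.96, Msmo1 at -0.95, Scap at -0.84, Sc5d at -0.81 and Ggps1 at -0.80. Elovl6 stood at -0.78, Sqle at -0.77, Insig1 at -0.72, Lss at -0.71, Hmgcs1 at -0.62 and Scd1 at -0.60.

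Pmvk was below its pH 7.4 level in both control pairs (-0.06 at 4 h and -0.71 at 12 h) and above it in both TDAG8 pairs (0.24 and 0.09), the member with opposite signs in the lines. The average difference between the lines was 0.54, and it was not shown to differ by the test of pH by line (adjusted p = 1).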

How the results depend on the processing

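Called members kept their direction in every comparison and alternative run (0 reversed). The alternatives reuse the same arrays and mostly the same probe sets, so a kept sign says little. Of 23 members with more than 1 probe set above the filter, 4 had probe sets of opposite sign at 12 h and 6 at 4 h. With arrays centred on the median, the sterol median was -0.689 at 12 h, -0.111 at 4 h and 0.1 between lines, and the fatty acid median was -0.667 at 12 h and 0.069 between lines. As deposited, the sterol median at 4 h was -0.052 and the fatty acid median between lines 0.1. Counts of called members among the 34 are given with the share of all genes tested in brackets. That share was not counted for the 8 treated arrays alone or with arrays or pairs left out. With centred arrays 6 were called for 12 h against 4 h (11.5%) and 5 at 4 h (15.3%). At pH 6.4 after 4 h against before, 2 were (13.8%). The last 2 counts are near or below the share of all genes. Without a filter 0 members and 0 genes were called for 12 h against 4 h. There 4 members were called at 4 h (6.05%), 2 at pH 6.4 after 4 h against before (4.92%) and 0 over 4 pairs (1.4%). The 8 treated arrays alone gave 5 at 4 h. Trend and robust moderation called 9 members between lines (7.26%), 14 over 4 pairs (17.2%) and 1 for time at pH 7.4 (0.296%). Against before, it called 9 at pH 6.4 after 4 h (22.2%) and 10 at pH 7.4 after 12 h (4.1%). The 60th percentile filter called 3 between lines (6.32%) and 10 over 4 pairs (20.6%). At pH 7.4 after 12 h against before, that filter called 3 (2.42%) and the larger pseudocount 1 (0.148%). The cause of these changes was not tested. With single arrays or pairs left out, calls ran from 0 to 9 for 12 h against 4 h, 0 to 8 at 4 h, 0 to 0 over 4 pairs, 13 to 24 for time at pH 6.4 and 2 to 5 at pH 6.4 after 4 h against before, the fatty acid median at 12 h from -0.939 to -0.755 and the sterol median from -0.99 to -0.851. Centring moved the share of higher calls among all genes from 49% to 60.4% at 12 h, from 35.1% to 17.2% at 4 h and from 56.4% to 66.3% between lines. The labels give no replicate numbers, so arrays were paired only by line, time or condition.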
